A study of Mus musculus with 22 samples.

Results

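The genes described are those of retinoic acid synthesis, carriage, reception and breakdown: Aldh1a1, Aldh1a2, Aldh1a3, Crabp1, Crabp2, Rara, Rarb, Rarg, Cyp26a1 and Cyp26b1. They were chosen by name, as the entries of the count table whose gene symbol is one of these names, with the counts of a symbol summed. All 10 were present among the 26202 symbols of the table. Their levels are given as CPM, counts as a share of the library total, scaled between 18 libraries by TMM, a method that aligns the bulk of genes.

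The series holds RNA libraries of whole mouse trachea (E11.5) and of cell populations sorted later, at E13.5. The question put to the mutants was how loss of the ligand Wnt5a, or of the extracellular enzyme Notum, alters the tracheal mesenchyme that forms the cartilage rings. The E11.5 controls were Wnt5a f/f (5 libraries) and the mutants Dermo1Cre; Wnt5a f/f (4 libraries), where the Cre acts in the mesenchyme, so the epithelium keeps its Wnt5a. Each E11.5 sample pooled 5 tracheas and was dissociated but not sorted. At E13.5 cells stained for EpCAM were taken as epithelium, cells with the gamma SMA eGFP reporter of smooth muscle as muscle, and cells with neither as chondroblasts, a class defined by what it lacks. The sorted controls were Bmp4 f/f or homozygous for a second Notum allele listed as a control, beside the reporter, and which library has which genotype cannot be read from the table. There were 2 libraries each of control epithelium, muscle and chondroblasts, and 3 libraries of chondroblasts from Notum 150/150; gamma SMA eGFP embryos, a loss of function allele. The labels list 3 samples for each sorted control population and 4 for the Notum mutants, so each sorted group lacks a listed sample here. The E11.5 libraries are named here by the number in their column names (7, 13, 16, 17 and 18 in controls, 7, 13, 17 and 18 in mutants). A control and a mutant of the same number are called a pair below. What the number stands for is not stated, so a pair may not share a litter or a batch. The sorted control libraries are named by the earlier or the later of the dates in their column names, and the Notum mutants, all of the later date, by the letters A, B and C.

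Total counts ran from 6880665 in E11.5 control 16 to 21678194 in the earlier chondroblasts. After scaling by TMM, 3 counts, used as the floor of detection, corresponded to 0.434 and 0.153 CPM there. The sorted populations carried the markers of their labels, also the earlier epithelium, whose column name gives both sort markers and was read as epithelium. The 10 epithelial markers summed to 3719 and 4447 CPM in the earlier and later epithelium, led by Krt8, against 17.8 to 47.6 CPM in the other sorted libraries. The 10 smooth muscle markers summed to 14827 and 11615 CPM in muscle, led by Acta2. The 12 chondroblast markers, led by Col2a1, summed to 4455 and 3692 CPM in control chondroblasts and to 5663, 6203 and 5016 CPM in Notum mutants A, B and C. Muscle was not free of them, at 1340 CPM in the earlier and 2846 CPM in the later library. Nor was epithelium, at 464 CPM in the earlier and 548 CPM in the later library.

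Several libraries stood apart. Red cell genes summed to 75953 CPM in the earlier control chondroblasts against 7902 CPM in the later ones. Skeletal muscle genes summed to 823 CPM in the earlier muscle and 71.8 CPM in the later muscle. The 12 genes that dissociation induces summed to 3558 CPM in E11.5 control 7 and 4430 CPM in mutant 7, against 223 to 577 CPM in the other E11.5 libraries. Neural genes summed to 526 CPM in E11.5 mutant 17 against 91.4 to 347 CPM in the other E11.5 libraries, led by Tubb3 there. Heart muscle genes summed to 245 CPM in E11.5 control 16 against 13.9 to 121 CPM in the other E11.5 libraries. In sorted epithelium the dissociation genes summed to 11143 and 15039 CPM, and in the sorted mesenchymal controls to 3891 to 8789 CPM. The levels of the targeted genes did not check the labels. Wnt5a was at 162, 88.4, 57.7, 86.9 and 84.6 CPM in E11.5 controls 7, 13, 16, 17 and 18 and at 127, 78.6, 46.5 and 87.7 CPM in mutants 7, 13, 17 and 18. Notum was at 13.8 and 86.1 CPM in the earlier and later control chondroblasts and at 34.0, 35.6 and 13.9 CPM in mutants A, B and C. The groups overlapped for both genes.

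Retinoic acid is made from vitamin A: retinol is taken up and turned into retinaldehyde, and retinaldehyde dehydrogenases turn that into retinoic acid. The acid is carried in the cytoplasm by small binding proteins, acts through nuclear receptors that bind DNA with RXR partners, and is broken down by cytochrome P450 enzymes of the Cyp26 family. In the embryonic foregut it is made mainly in the mesoderm, is needed for the lung and trachea to form, and holds back cartilage differentiation in the limb.

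By RefSeq on GRCm38.p6, the build called mm10 in the labels, the dehydrogenase genes are Aldh1a1 (chromosome 19, 20492583 to 20643463), Aldh1a2 (chromosome 9, 71215789 to 71296243) and Aldh1a3 (chromosome 7, 66390892 to 66427477). The genes of the binding proteins are Crabp1 (chromosome 9, 54764748 to 54773110) and Crabp2 (chromosome 3, 87948693 to 87953372). Those of the receptors are Rara (chromosome 11, 98927800 to 98974942), Rarb (chromosome 14, 16430839 to 17082331) and Rarg (chromosome 15, 102234938 to 102257522). Those of the breakdown enzymes are Cyp26a1 (chromosome 19, 37697738 to 37701536) and Cyp26b1 (chromosome 6, 84571414 to 84593908).

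Retinoic acid receptors bind a direct repeat of a short core. The core AGGTCA was searched together with its variants, namely AGTTCA as well as GGGTCA together with GGTTCA, as pairs in direct repeat, on both strands, with 1, 2 or 5 bases between them (DR1, DR2 and DR5), from 250 bases before to 50 bases after each start in the RefSeq promoter table. The table held 13 promoters for 8 of the 10 genes; Aldh1a3 and Crabp2 had none. DR5 occurred in 32 of 32851 promoters (0.0974%), and 2 of the 10 genes, Rarb and Cyp26a1, had a promoter with it. DR1 occurred in 0.222% and DR2 in 0.268% of promoters, in none of these genes' promoters. A match describes the letters of a window and is not a measured binding site. The 250 bases before the start are shown for both genes because they are the promoters with a match, with the cores in capitals. That of Rarb is chr14:16575477-16575726, read on the minus strand, and its repeat lies on the strand of the gene, 53 to 37 bases before the start. That of Cyp26a1 is chr19:37697558-37697807, read on the plus strand, and its repeat lies on the opposite strand, 32 to 16 bases before the start, so that it is seen here as its reverse complement. These starts are those of the RefSeq table and differ from the ends of the gene spans above: the start used for each gene, and its repeat, lie inside that span.
Rarb: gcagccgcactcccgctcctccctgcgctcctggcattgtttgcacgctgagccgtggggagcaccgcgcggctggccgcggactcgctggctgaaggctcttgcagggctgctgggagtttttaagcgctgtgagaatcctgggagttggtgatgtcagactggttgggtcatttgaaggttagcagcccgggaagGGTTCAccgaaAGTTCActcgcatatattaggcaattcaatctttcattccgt
Cyp26a1: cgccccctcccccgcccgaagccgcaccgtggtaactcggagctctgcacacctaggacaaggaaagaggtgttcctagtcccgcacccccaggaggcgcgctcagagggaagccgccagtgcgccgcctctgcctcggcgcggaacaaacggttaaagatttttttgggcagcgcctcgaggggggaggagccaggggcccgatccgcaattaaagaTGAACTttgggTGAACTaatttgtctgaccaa

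Genes can be compared with each other only per length, here as mean CPM per kilobase of exon. On this scale the dehydrogenase gene with the highest level in both E11.5 groups was Aldh1a2, at 150 ± 50.2 CPM per kilobase in controls (SD, n = 5) against 1.23 ± 0.651 for Aldh1a3 and 0.726 ± 0.332 for Aldh1a1. Aldh1a2 also led in sorted muscle, at 25.9 ± 6.82 CPM per kilobase, and control chondroblasts, at 27.8 ± 13.5001 (SD, n = 2 each). The epithelium differed in its order, with Aldh1a2 at 7.26 ± 0.799, Aldh1a1 at 3.78 ± 0.308 and Aldh1a3 at 0 CPM per kilobase in both libraries. Aldh1a2 was thus the most abundant synthesis enzyme of each group on the scale of length.

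Of the binding proteins, Crabp1 led Crabp2 in sorted mesenchyme. In control chondroblasts Crabp1 stood at 652 ± 21.1 and Crabp2 at 85.7 ± 0.900 CPM per kilobase (SD, n = 2). In E11.5 controls they stood at 118 ± 33.3 and 97.6 ± 17.9 CPM per kilobase (SD, n = 5), which do not differ beyond their spread. Among the receptors the order was Rarb, Rara, Rarg at E11.5 and Rarb, Rarg, Rara in control chondroblasts, where the levels were 30.7 ± 0.912, 11.1 ± 4.89 and 8.16 ± 1.58 CPM per kilobase, so that Rarg and Rara overlapped in their spread there. Of the breakdown enzymes Cyp26a1 was at 7.76 ± 0.330 CPM per kilobase in control chondroblasts, within the spread of Rara, and Cyp26b1 was lower, at 1.04 ± 0.205.

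**Figure D1:**
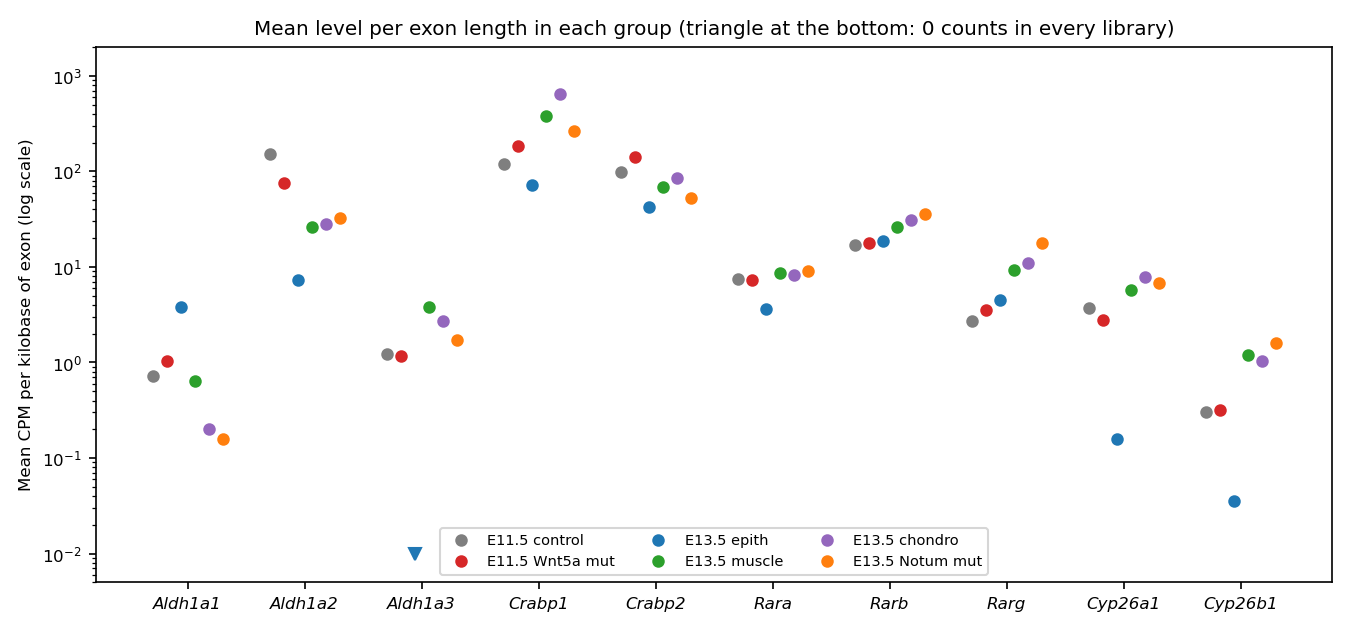
Mean level of each gene in CPM per kilobase of exon, on a log scale, for the 6 groups of libraries (points, 1 per group, coloured by group); a triangle at the bottom marks Aldh1a3 in the epithelium, with 0 counts in both libraries. Aldh1a2 is the highest dehydrogenase gene in each group, and Crabp1 in control chondroblasts, at 652 CPM per kilobase, is the highest value drawn.

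Across the 18 libraries each gene spanned a different range. Rara varied least among the receptors, from 13.99 to 44.8 CPM, while Rarb ran from 52.6 to 200 CPM and Rarg from 3.77 to 90.9 CPM. Aldh1a2 ran from 15.2 to 459 CPM and Crabp1 from 44.6 to 535 CPM. Aldh1a1, Cyp26a1 and Cyp26b1 were at 0 in at least 1 library and at most at 19.7, 15.8 and 12.6 CPM.

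**Figure D2:**
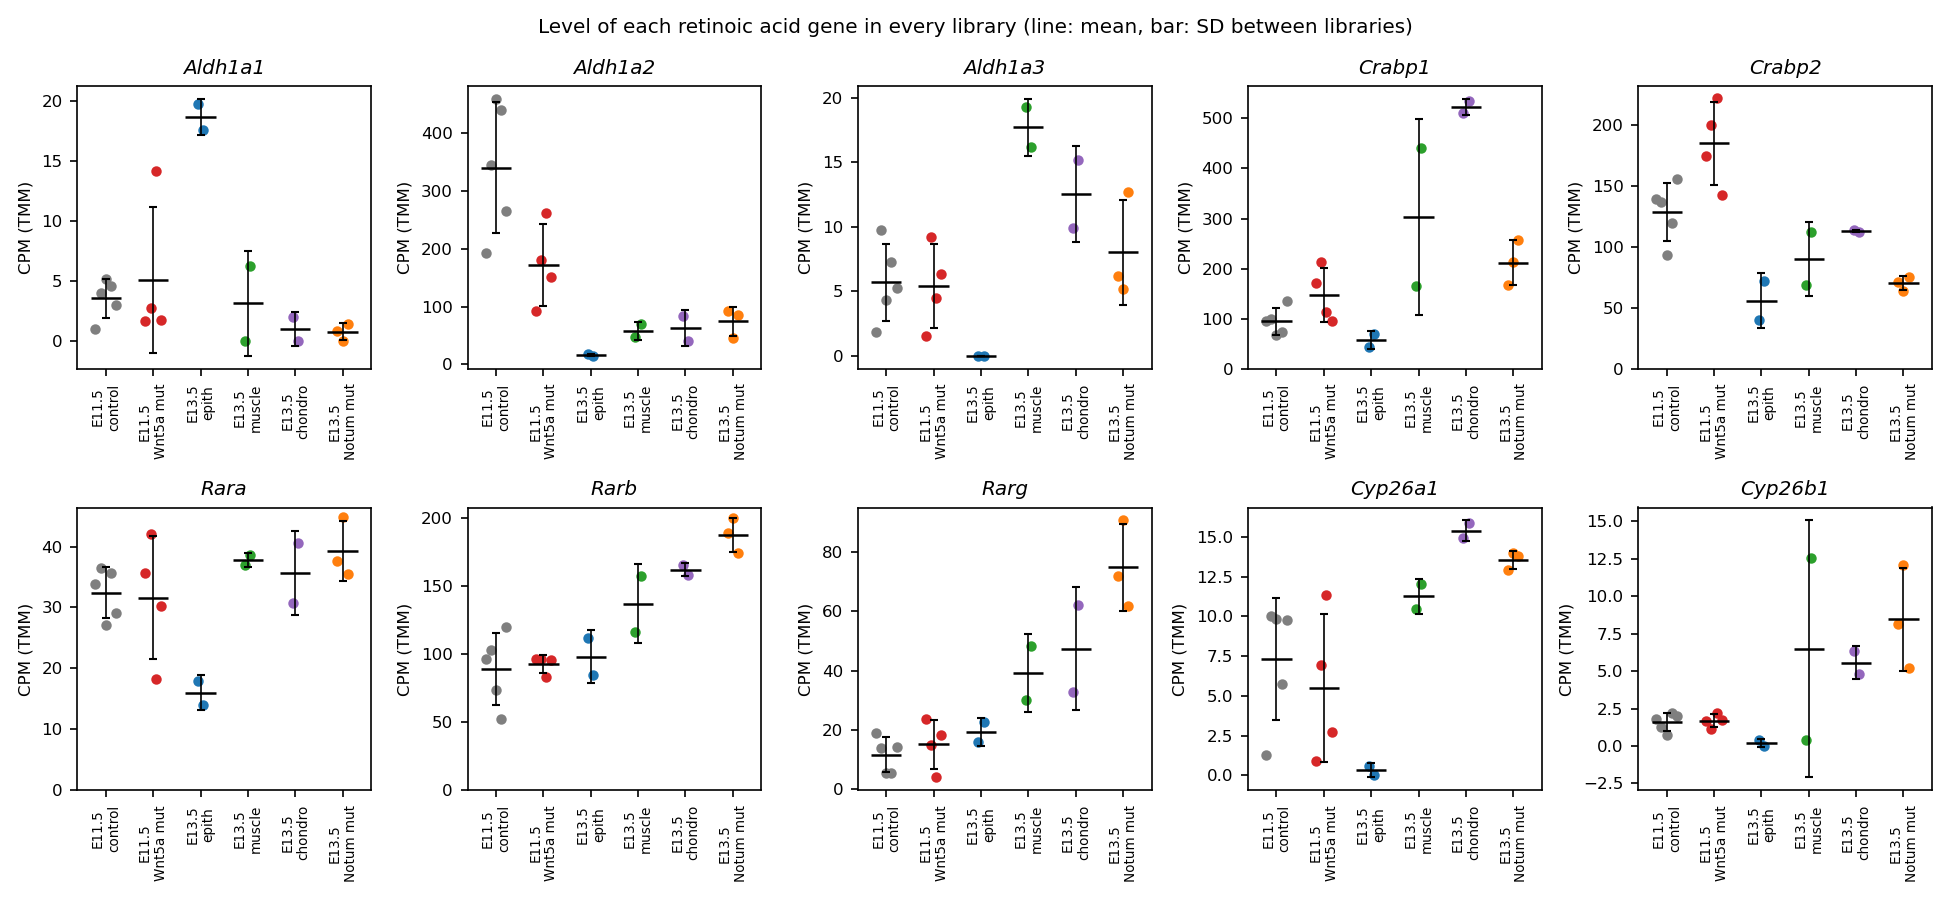
Level of each of the 10 genes in CPM in every library (points), by group, with the mean (line) and the SD between libraries (bar). Aldh1a2 is highest in the E11.5 controls, from 192 to 459 CPM, and lowest in the sorted epithelium, at 15.2 and 17.7 CPM.

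The first comparison asked what the loss of mesenchymal Wnt5a does to whole tracheas at E11.5. Tests were made with edgeR's quasi-likelihood test, a model of counts fitted across all genes, with p-values adjusted by the Benjamini-Hochberg method. The study's thresholds, a p under 0.05 with a fold change over 1.5, were counted as well. Here they were applied to unadjusted p-values, from edgeR unless DESeq2 is named. The study used DESeq2 and also asked for a minimum expression level. The labels list separate samples, and the p-values measure only the spread between them. With edgeR 0 of the 10 genes passed an adjusted p of 0.05, beside 0.0136% of 14663 genes tested; 3 of the 10 had an unadjusted p under 0.05, as had 672 of all genes, and DESeq2 called 40 genes at an adjusted p under 0.05, with 0 of the 10 among them. At the study's thresholds 2 of the 10 passed, Aldh1a2 lower and Crabp1 higher, beside 3.72% of all genes. The median log2 fold change was 0.03 over the 10 genes and -0.02 over all genes tested.

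Aldh1a2, the main retinaldehyde dehydrogenase of embryonic mesoderm, was at 192, 344, 459, 440 and 266 CPM in controls 7, 13, 16, 17 and 18. In mutants 7, 13, 17 and 18 it was at 92.6, 181, 262 and 151 CPM. The groups overlapped, since mutant 17 lay above control 7, but each mutant lay below the control of the same number. The mutant level was 48.2% of the control level in pair 7, 52.6% in pair 13, 59.4% in pair 17 and 57.1% in pair 18. Mutants differed by -1.04 (log2) with a standard error of 0.33, an unadjusted p of 0.00978 and an adjusted p of 0.9996 by edgeR with Benjamini-Hochberg adjustment, lower in 4 of 4 pairs, so that it did not pass. With the number as a replicate block, edgeR gave -0.89 with a standard error of 0.12 and an adjusted p of 0.117 after Benjamini-Hochberg adjustment, lower in 4 of 4 pairs, which did not pass either; over its 16 alternatives the adjusted p was 0.117 or more. Among the 10 genes Aldh1a2 alone was lower in every pair, which held for 5.78% of all genes, and 0 of the 10 were higher in every pair.

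Markers of mesothelium, a cell layer that lines body cavities, were also lower in the mutant of each pair. The 5 markers (Wt1, Upk3b, Msln, Lrrn4 and Upk1b) summed to 62.9, 169, 255, 289 and 79.0 CPM in controls 7, 13, 16, 17 and 18 and to 31.7, 123, 105 and 55.4 CPM in mutants 7, 13, 17 and 18. Upk3b was the most abundant of them in each of these 9 libraries, and none was at 0. The sum was 50.3%, 72.9%, 36.3% and 70.1% of the paired control in pairs 7, 13, 17 and 18, and the 4 markers tested were all lower, 2 of them past the study's thresholds. The sizes did not go together: pair 17 had the highest percentage for Aldh1a2, 59.4%, and the lowest for the sum. In whole tracheas fewer cells of a type and less RNA per cell cannot be told apart, and the part of mesothelium in the level of Aldh1a2 was not tested. In sorted chondroblasts the same list summed to 17.9 and 7.17 CPM in the earlier and later controls and to 51.7, 1.28 and 35.6 CPM in Notum mutants A, B and C. Aldh1a2 there was at 84.6, 41.3, 92.7, 45.5 and 84.8 CPM. In the earlier and later muscle the list summed to 2.25 and 0.126 CPM, with Aldh1a2 at 47.6 and 69.5 CPM. Over the sorted mesenchyme the order of the sum and that of Aldh1a2 differed. Among the chondroblasts alone, only mutant B and the later control changed places.

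**Figure D3:**
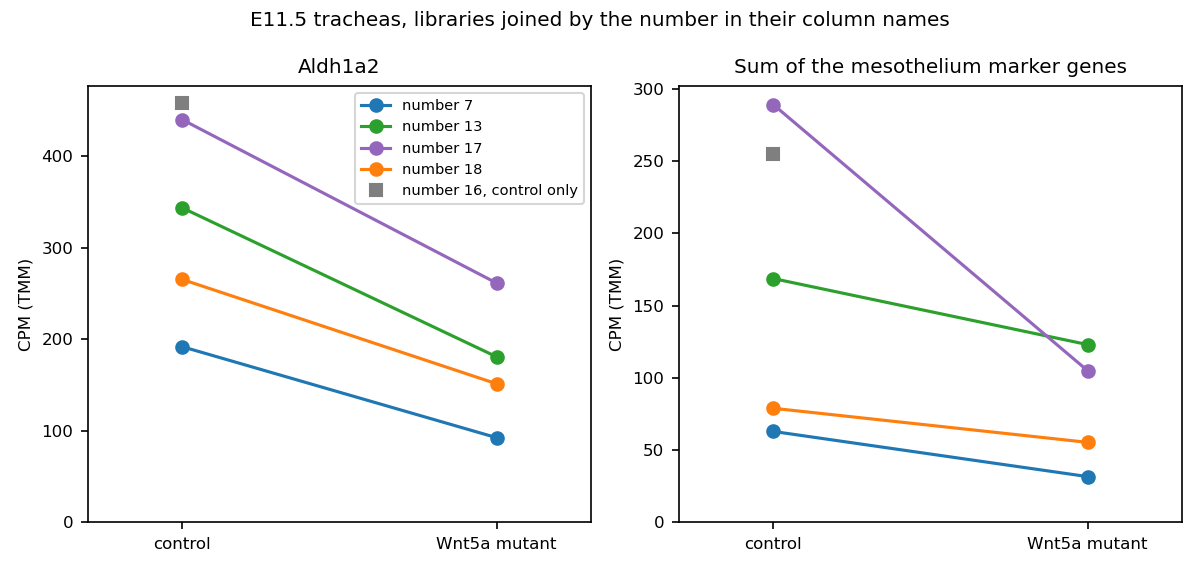
Level of Aldh1a2 (left) and of the mesothelium markers summed (right) in CPM in the E11.5 libraries, with lines joining a control and a mutant of the same number; the square is control 16, which has no mutant of its number. Aldh1a2 and the sum are lower in the mutant in 4 of 4 pairs.

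The other dehydrogenase genes were low. Aldh1a1, which acts in epithelia among other tissues, was at 1.02, 4.01, 5.21, 4.62 and 3.05 CPM in controls 7, 13, 16, 17 and 18 and at 1.70, 2.75, 14.2 and 1.77 CPM in mutants 7, 13, 17 and 18. Mutant 17 was high and the rest overlapped. The 10 epithelial markers also summed to more in mutant 17, 798 CPM against 280 to 468 CPM in the other E11.5 libraries, with Cldn6 the most abundant there, and their part in this value was not tested. Aldh1a3, the third enzyme of the family, ran from 1.84 to 9.77 CPM in controls and from 1.54 to 9.25 CPM in mutants, so the groups overlapped. The sign of the difference in Aldh1a1 turned without mutant 17, from a log2 fold change of 0.48 to -0.82.

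Neither binding protein passed the adjusted test. Crabp1, which carries retinoic acid in the cytoplasm, was at 96.4, 100.3, 67.1, 74.6 and 135 CPM in controls 7, 13, 16, 17 and 18. In mutants 7, 13, 17 and 18 it was at 170, 213, 113 and 94.6 CPM. Mutants 17 and 18 lay within the range of the controls, and mutant 18 lay below control 18. The log2 fold change was 0.61 with a standard error of 0.25 and an unadjusted p of 0.0328 in edgeR, higher in 3 of 4 pairs. This call at the study's thresholds did not hold with the replicate block by number (0.50, unadjusted p 0.0735). Nor did it hold in edgeR without control 7 (p 0.05001), control 16 (p 0.0627), control 17 (p 0.0743), mutant 7 (p 0.0744) or mutant 13 (p 0.138).

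Crabp2, which carries retinoic acid to the nuclear receptors, was at 139, 137, 93.4, 120 and 156 CPM in controls 7, 13, 16, 17 and 18 and at 175, 200.05, 223 and 143 CPM in mutants 7, 13, 17 and 18. Mutant 18 again overlapped the controls. This was a difference of 0.49 (log2) with a standard error of 0.16 and an unadjusted p of 0.0116 in edgeR, higher in 3 of 4 pairs, under the fold of the study's thresholds, which it passed only without mutant 18 (0.61, p 0.00497). The receptors Rara, Rarb and Rarg had log2 fold changes of -0.07, 0.03 and 0.37 with standard errors of 0.22, 0.20 and 0.49. The breakdown enzymes Cyp26a1 and Cyp26b1 had -0.46 and 0.03 with standard errors of 0.69 and 0.39. Each of these was within its error, and the groups overlapped.

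Skeletal muscle genes moved with the Wnt5a genotype as well. The 8 markers summed to 54.8, 75.7, 110, 92.6 and 54.3 CPM in controls 7, 13, 16, 17 and 18 and to 183, 157, 147 and 143 CPM in mutants 7, 13, 17 and 18, with Chrna1 the most abundant in each control and Myog in each mutant; Myf6 was at 0 in control 7. Both genes that passed the adjusted test, Myog and Myod1, are of this list. Epithelial markers were higher in 9 of 10, with 3 past the study's thresholds with and without the replicate block, though their sums overlapped between the groups. Markers of oesophagus and pharynx epithelium were higher in 4 of 4 tested, with a median of 1.24 and 1 past these thresholds. Their sum was 16.3 to 33.8 CPM in controls and 47.8, 54.2, 55.6 and 15.6 CPM in mutants 7, 13, 17 and 18, mutant 18 lying below the controls. Heart muscle markers summed to 25.1, 32.2, 245, 80.1 and 105 CPM in controls 7, 13, 16, 17 and 18. In mutants 7, 13, 17 and 18 they summed to 23.4, 39.8, 121 and 13.9 CPM. Control 16, the highest, was also the highest in Aldh1a2. Of 4 heart markers tested 3 were lower, with a median of -0.64, while 3 were higher with the replicate block (0.17). The part of such cells in the values above was not tested.

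The second comparison set Notum mutant chondroblasts against control chondroblasts, 3 libraries against 2. Of the 10 genes 9 were tested, Aldh1a1 being too low at 0 to 1.99 CPM. With edgeR 0 of 9 passed an adjusted p of 0.05, beside 0% of 14120 genes tested; 2 of 9 had an unadjusted p under 0.05, as had 1762 of all genes, and DESeq2 called 526 genes at an adjusted p under 0.05. At the study's thresholds 2 of 9 passed, both lower, beside 8.41% of all genes. The median log2 fold change was 0.15 over the 9 genes and 0.02 over all. Of all 1188 calls at these thresholds 778 were higher in mutants, and with scaling by library size alone 1034 of 1343 were. The groups did not overlap for 4 of 9 genes, Crabp1, Crabp2, Rarb and Cyp26a1, beside 33.6% of all genes.

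Crabp1 was at 511 and 535 CPM in the earlier and later control and at 167, 213 and 256 CPM in mutants A, B and C. Both controls lay above each mutant, with no overlap. Its difference was -1.29 (log2) with a standard error of 0.19 and an adjusted p of 0.144 by edgeR with Benjamini-Hochberg adjustment, lower in 3 of 3 mutants, so that it did not pass. Crabp2 was at 114 and 112 CPM in the earlier and later control and at 71.0, 64.3 and 75.8 CPM in mutants A, B and C. The controls were nearly equal and the mutants all lower. Its difference was -0.68 (log2) with a standard error of 0.13 and an adjusted p of 0.231 by edgeR with Benjamini-Hochberg adjustment, lower in 3 of 3 mutants.

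Some alternatives changed whether these values passed. Without the earlier control, the library with the highest red cell sum, a single control remained, assumed to vary like the mutants, and calls over all genes went from 0 to 2540 of 14509 in edgeR, with 5174 genes at an unadjusted p under 0.05. Crabp1 then passed with an adjusted p of 0.0146 by edgeR with Benjamini-Hochberg adjustment and a log2 fold change of -1.34, lower in 3 of 3 mutants. Crabp2 passed likewise with an adjusted p of 0.0319 by edgeR with Benjamini-Hochberg adjustment and a log2 fold change of -0.68, lower in 3 of 3 mutants. Date and genotype are not fully separate, since the mutants are all of the later date. Against the later control alone the mean mutant level was 0.397 of control for Crabp1 and 0.626 for Crabp2, and against the earlier control 0.415 and 0.617, with 1 control library in each of these ratios. DESeq2 called both genes in all libraries, with adjusted p-values of 2.56e-07 for Crabp1 at -1.30 and 0.00170 for Crabp2 at -0.68, lower in 3 of 3 mutants. With no filter and all libraries of the comparison Crabp1 had an adjusted p of 0.0182 by edgeR with Benjamini-Hochberg adjustment at -1.29, lower in 3 of 3 mutants. A term for the date fits the earlier control, the only earlier library here, exactly, so that it rests on the later control alone and is no separate test. Over the 13 alternatives the adjusted p of Crabp1 ran from 2.56e-07 to 0.789 and that of Crabp2 from 0.00170 to 0.816.

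In the edgeR fit with the filter, summed entries and all libraries of this comparison, the receptors passed neither rule. Rarb was at 165 and 158 CPM in the earlier and later control and at 189, 200 and 174 CPM in mutants A, B and C. Its groups did not overlap, but the gap was small. Mutants differed by 0.22 (log2) with a standard error of 0.11 and an adjusted p of 0.455 by edgeR with Benjamini-Hochberg adjustment, higher in 3 of 3 mutants. Rarg was at 32.6 and 62.1 CPM in controls and at 71.9, 90.9 and 62.0 CPM in mutants A, B and C, where mutant C lay just under the later control. Its log2 fold change was 0.67 with a standard error of 0.32, and it passed the study's thresholds in edgeR without the later control (1.21, unadjusted p 0.00189), with no filter (0.67, p 0.0356) and with its most abundant entry alone (0.88, p 0.0431). Rara, at 30.8 and 40.5 CPM in controls and 35.4 to 44.8 CPM in mutants, overlapped, and its difference of 0.15 turned to -0.048 without the earlier control and to -0.055 with a term for the date, which rests on the later control alone.

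Of the enzymes, Aldh1a2 overlapped and its difference of 0.25 turned to -0.18 without the later control. Aldh1a3 was at 9.91 and 15.2 CPM in controls and at 6.17, 5.20 and 12.7 CPM in mutants A, B and C, which overlapped. Cyp26a1 was at 14.9 and 15.8 CPM in controls and 12.9, 14.0 and 13.8 CPM in mutants, a small difference of -0.17 with a standard error of 0.25. Cyp26b1 was at 6.33 and 4.78 CPM in controls and 8.12, 12.1 and 5.18 CPM in mutants, which overlapped.

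Marker lists also differed between these groups. The chondroblast list, given above, was higher in each mutant than in each control, with Col2a1 the most abundant in the 5 libraries and Matn1 at 0 in the later control and in mutant A. Of its 11 genes tested 9 were higher, and 4 higher and 1 lower passed the study's thresholds. The epithelial list summed to 39.8 and 36.5 CPM in the earlier and later control and to 27.8, 17.8 and 30.3 CPM in mutants A, B and C, with Cdh1 at 0 in mutant A and Krt18 or Krt8 the most abundant. At the study's thresholds 6 of 8 red cell genes and 3 of 12 dissociation genes were lower, 3 of 7 macrophage genes were higher and 1 lower, and 2 of 8 neural genes were higher. The red cell sum was high in the earlier control alone, and the sums of the macrophage, neural and dissociation lists overlapped between the groups. Smooth muscle and heart muscle each had 1 gene higher past the thresholds. Their part in the differences was not tested.

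**Figure D4:**
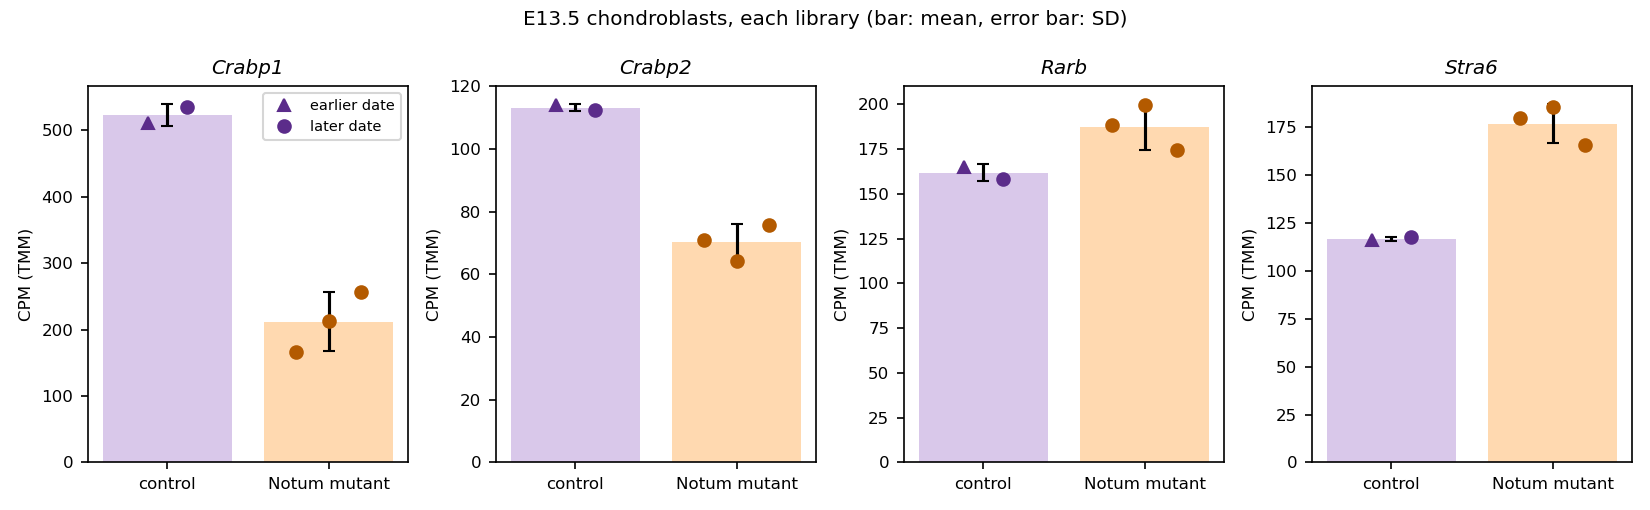
Levels in CPM of Crabp1, Crabp2, Rarb and Stra6 in E13.5 chondroblasts (points: libraries; bars: group means; error bars: SD; triangles mark the earlier date). Each mutant lies below both controls for Crabp1 and Crabp2 and above both for Rarb and Stra6.

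The third comparison set sorted epithelium against sorted mesenchyme, the mean of muscle and chondroblasts, in E13.5 controls. With edgeR 2 of the 10 genes passed an adjusted p of 0.05, both lower in epithelium, beside 5.14% of 13687 genes tested. At the study's thresholds 8 of 10 passed, all lower in epithelium, beside 18.8% of all genes. The median log2 fold change was -1.52 over the 10 genes, also with Aldh1a3 set at its bound, and -0.02 over all genes. Dissociation genes differed as well, 10 of 12 being higher in epithelium and 4 past the adjusted test. Red cell genes were lower in 8 of 8 and endothelial genes in 5 of 6. Libraries of a population also differed, with macrophage genes at 295 and 1.11 CPM in the earlier and later epithelium and 0.770 and 413 CPM in muscle, and oesophagus and pharynx genes at 105 and 1.57 CPM in epithelium. The part of these lists was not tested. In 8 of 10 genes, all but Aldh1a1 and Crabp2, both epithelial libraries lay below each mesenchymal library, which held for 17.7% of all genes.

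Aldh1a3 had 0 counts in both epithelial libraries, 19.3 and 16.2 CPM in the earlier and later muscle, and 9.91 and 15.2 CPM in the earlier and later chondroblasts. The groups were apart. Against a floor of 3 counts per library its level in epithelium was at least 89.0-fold lower, with an adjusted p of 0.0203 by edgeR with Benjamini-Hochberg adjustment, lower in 2 of 2 libraries. This call was lost, at adjusted p-values from edgeR with Benjamini-Hochberg adjustment, without the earlier muscle (0.0720), the later muscle (0.0721), the earlier chondroblasts (0.0760) or the later chondroblasts (0.0855), each time still with 0 counts in 2 of 2 epithelial libraries. Over its 13 alternatives the adjusted p ran from 7.71e-09 to 0.0855.

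Crabp1 was at 44.6 and 70.5 CPM in the earlier and later epithelium. In muscle it was at 164 and 441 CPM and in chondroblasts at 511 and 535 CPM, earlier and later. The epithelium lay below each mesenchymal library, and muscle below chondroblasts. The log2 fold change of epithelium was -2.78 with a standard error of 0.45 and an adjusted p of 0.0245 by edgeR with Benjamini-Hochberg adjustment, lower in 2 of 2 libraries. This call was lost, at adjusted p-values from edgeR with Benjamini-Hochberg adjustment and log2 fold changes of -3.13 to -2.50, without the earlier epithelium (0.0584), the later epithelium (0.0730), the earlier chondroblasts (0.0796) or the later chondroblasts (0.0793). Where 1 library of a population was left, it was assumed to vary like the others. Over its 13 alternatives the adjusted p ran from 1.27e-25 to 0.0796.

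Aldh1a2 was at 17.7 and 15.2 CPM in epithelium, 47.6 and 69.5 CPM in muscle and 84.6 and 41.3 CPM in chondroblasts, earlier and later. The epithelium was lowest and the mesenchymal populations overlapped. The log2 fold change was -1.87 with a standard error of 0.43 and an adjusted p of 0.0644 by edgeR with Benjamini-Hochberg adjustment, lower in 2 of 2 libraries, so that it did not pass. Its adjusted p passed in DESeq2 (0.000615), and with no filter (0.00138) or all libraries in 1 fit (0.00747) in edgeR with Benjamini-Hochberg adjustment, at -1.89 to -1.87 and lower in 2 of 2 libraries, with a highest value of 0.210 over 13 alternatives. Aldh1a1 went the other way, at 19.7 and 17.6 CPM in epithelium, 0.0593 and 6.25 CPM in muscle and 1.99 and 0 CPM in chondroblasts. Both epithelial libraries lay above the mesenchyme, whose libraries differed widely among themselves. Its log2 fold change was 3.403 with a standard error of 1.82 and an adjusted p of 0.364 by edgeR with Benjamini-Hochberg adjustment, higher in 2 of 2 libraries. It passed the study's thresholds in edgeR with no filter (3.38, unadjusted p 0.00791), all libraries in 1 fit (3.38, p 0.0210) or its most abundant entry (6.51, p 0.00493), still higher in 2 of 2 libraries. It also passed them without the later muscle (6.20) or without the earlier chondroblasts (6.92). The last value is fitted with 0 counts in the chondroblasts left and is no bound. Its adjusted p passed in 0 of 13 alternatives.

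Cyp26a1, which clears retinoic acid and is itself induced by it, was at 0.623 and 0 CPM in epithelium, 10.5 and 12.1 CPM in muscle and 14.9 and 15.8 CPM in chondroblasts, earlier and later. The epithelium was far below the mesenchyme. The adjusted p was 0.140 by edgeR with Benjamini-Hochberg adjustment, with a log2 fold change of -5.31 and a standard error of 1.65, lower in 2 of 2 libraries. Without the earlier epithelium the remaining epithelial library had 0 counts and the adjusted p was 0.0221 by edgeR with Benjamini-Hochberg adjustment, lower in 1 of 1 library. It passed with no filter (0.0142 at -5.34) and all libraries in 1 fit (0.00539 at -5.29) in edgeR with Benjamini-Hochberg adjustment as well, lower in 2 of 2 libraries. Over its 13 alternatives the adjusted p ran from 0.000126, in DESeq2, to 0.325. Cyp26b1, the enzyme of the same family known from developing cartilage, was at 0.383 and 0 CPM in epithelium, 0.415 and 12.6 CPM in muscle and 6.33 and 4.78 CPM in chondroblasts. The muscle libraries lay at opposite ends of the range, so the earlier muscle was close to the earlier epithelium. It passed the study's thresholds in edgeR without the earlier epithelium (unadjusted p 0.0384), without the earlier muscle (-5.32, p 0.0423), with no filter (-4.88, p 0.0279) and with all libraries in 1 fit (-4.84, p 0.00150), and in DESeq2 (-4.94, p 0.00693). In the last 2 its adjusted p passed as well, at 0.0108 in edgeR with Benjamini-Hochberg adjustment (-4.84) and 0.0474 in DESeq2 (-4.94), lower in 2 of 2 libraries, with a highest value of 0.577 over 13 alternatives.

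The receptors and Crabp2 were lower in epithelium by less. The log2 fold changes were -1.18 for Rara, -0.59 for Rarb, -1.16 for Rarg and -0.84 for Crabp2, each past the study's thresholds and none past the adjusted test. Rara was at 18.01 and 13.99 CPM in epithelium and 30.8 to 40.5 CPM in mesenchyme. Rarb was at 112 and 84.3 CPM in epithelium, 117 and 157 CPM in muscle and 165 and 158 CPM in chondroblasts. These calls were not stable to single libraries in edgeR. They also changed with other settings: Rarb lost its call with a term for the date (p 0.0524) or library size only (p 0.0592), and Rara with no filter (p 0.0519). Rarg lost it with library size only (p 0.0584), all libraries in 1 fit (p 0.0659) or its most abundant entry (p 0.129). Past the adjusted test came Rara in DESeq2 (0.0282 at -1.19), and with all libraries in 1 fit Rara (0.00690 at -1.20) and Crabp2 (0.0215 at -0.85) in edgeR with Benjamini-Hochberg adjustment, with lower means in epithelium. Over 13 alternatives the adjusted p reached 0.929 for Rara and 0.433 for Crabp2.
The call of Rara was lost without the later epithelium (p 0.0712), the earlier muscle (p 0.0571), the later muscle (p 0.0613) or the later chondroblasts (p 0.0866). That of Rarb was lost without the later epithelium (p 0.190), the later muscle (p 0.100), the earlier chondroblasts (p 0.0844) or the later chondroblasts (p 0.0736). That of Rarg was lost without the earlier epithelium (p 0.152), the later epithelium (p 0.0551), the later muscle (p 0.121) or the later chondroblasts (p 0.156). For Crabp2 these were the earlier epithelium (p 0.201), the later muscle (p 0.105), the earlier chondroblasts (p 0.0835) and the later chondroblasts (p 0.0855). Rara had 5 entries in the table, the largest holding 32.4% of its counts, and with that entry alone the difference turned to 0.18.

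The fourth comparison set muscle against chondroblasts in the same fit. With edgeR 0 of the 10 genes passed an adjusted p of 0.05, beside 0.132% of 13687 genes; 0 of 10 had an unadjusted p under 0.05, as had 792 of all genes, and DESeq2 called 254 genes. At the study's thresholds 0 of 10 passed, beside 5.47% of all genes. The median log2 fold change was -0.15 over the 10 genes and -0.00 over all. Crabp1 had a log2 fold change of -0.77 with a standard error of 0.46. The later muscle, with more Crabp1, was also the muscle library with more of the chondroblast markers, led by Col2a1, and their part was not tested. Crabp1 passed the study's thresholds in edgeR without the later muscle (-1.64), with a term for the date (-0.93, unadjusted p 0.0353) and with no filter (-0.80, p 0.00188). Aldh1a1 passed them in edgeR with its most abundant entry alone (5.08, p 0.0471).

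The last comparison set the control chondroblasts (E13.5, 2 libraries) beside the unsorted E11.5 controls (5 libraries). Stage, sorting and the genotype of the controls cannot be told apart in it. With edgeR 3 of the 10 genes passed an adjusted p of 0.05, 2 higher and 1 lower at E13.5, beside 12.5% of 14728 genes tested. At the study's thresholds 5 of 10 passed, 4 higher and 1 lower, beside 26.1% of all genes. The median log2 fold change was 0.93 over the 10 genes and -0.05 over all. The groups did not overlap for 7 of 10 genes, all but Aldh1a1, Crabp2 and Rara, beside 35.6% of all genes.

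Crabp1 rose from 67.1 to 135 CPM in E11.5 controls to 511 and 535 CPM in chondroblasts. The groups were far apart. On the log2 scale the rise was 2.44 with a standard error of 0.23 and an adjusted p of 0.000706 by edgeR with Benjamini-Hochberg adjustment, higher in 2 of 2 libraries, and it passed in 14 of 14 alternatives, with adjusted p-values up to 0.0195. Over these alternatives the log2 fold change of Crabp1 ran from 1.12 to 2.60. Aldh1a2 fell from 192 to 459 CPM at E11.5 to 84.6 and 41.3 CPM in the earlier and later chondroblasts. Each chondroblast library lay below each E11.5 library. On the log2 scale the difference was -2.48 with a standard error of 0.47 and an adjusted p of 0.0127 by edgeR with Benjamini-Hochberg adjustment, lower in 2 of 2 libraries. Without the later chondroblasts the adjusted p was 0.0767 by edgeR with Benjamini-Hochberg adjustment, at -2.06, lower in 1 of 1 library. Over its 14 alternatives the adjusted p ran from 5.59e-08 to 0.0767.

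Rarg, the receptor known from cartilage, rose from 5.35 to 18.7 CPM at E11.5 to 32.6 and 62.1 CPM in the earlier and later chondroblasts. The groups were apart. On the log2 scale the rise was 2.02 with a standard error of 0.46 and an adjusted p of 0.0260 by edgeR with Benjamini-Hochberg adjustment, higher in 2 of 2 libraries. This call was lost, at adjusted p-values from edgeR with Benjamini-Hochberg adjustment and log2 fold changes of 1.48 to 2.10 with each chondroblast library still higher, without control 13 (0.0533), control 17 (0.0509) or the later chondroblasts (0.170). Over its 14 alternatives the adjusted p ran from 0.00111 to 0.170.

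Rarb and Cyp26b1 passed the study's thresholds and not the adjusted test. Rarb was at 52.6 to 120 CPM at E11.5 and 165 and 158 CPM later, 0.84 on the log2 scale with an adjusted p of 0.0704 by edgeR with Benjamini-Hochberg adjustment, higher in 2 of 2 libraries. Without the earlier chondroblasts its unadjusted p in edgeR was 0.0631, and with the mean of the 3 sorted populations its log2 fold change was 0.52, so that both lost the call. Its adjusted p passed with all libraries in 1 fit (0.0242 at 0.83) in edgeR with Benjamini-Hochberg adjustment and in DESeq2 (0.0296 at 0.82), higher in 2 of 2 libraries, and reached 0.194 over 14 alternatives. Cyp26b1 was at 0.723 to 2.21 CPM at E11.5 and 6.33 and 4.78 CPM later, 1.74 on the log2 scale with an adjusted p of 0.0615 by edgeR with Benjamini-Hochberg adjustment, higher in 2 of 2 libraries. Its call at the study's thresholds was lost with all libraries in 1 fit (p 0.0616), its most abundant entry (p 0.0717) or the mean of the 3 sorted populations (p 0.7998) in edgeR. DESeq2 gave it an adjusted p of 0.0139 at 1.72, higher in 2 of 2 libraries, the lowest of 14 alternatives that reached 0.894. Cyp26a1, at 1.28 to 10.005 CPM at E11.5, and Aldh1a3, at 1.84 to 9.77 CPM, were also lower in each E11.5 control than in each chondroblast library, without passing the test. Aldh1a3 passed the study's thresholds without control 13 (1.37, unadjusted p 0.0438 in edgeR). Without the earlier chondroblasts Aldh1a1 had 0 counts on the chondroblast side and an adjusted p of 0.0191 by edgeR with Benjamini-Hochberg adjustment, lower in 1 of 1 library, the lowest of 14 alternatives that reached 0.966.

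Marker lists differed between these groups as well. The epithelial list summed to 280 to 458 CPM in E11.5 controls and to 39.8 and 36.5 CPM in the earlier and later chondroblasts. The mesothelium list summed to 62.9 to 289 CPM and to 17.9 and 7.17 CPM, with Upk3b the most abundant and Lrrn4, Msln and Wt1 at 0 in the later chondroblasts. The chondroblast list summed to 329 to 885 CPM and to 4455 and 3692 CPM. Smooth muscle genes were lower in 9 of 10, 7 past the adjusted test, and endothelial genes in 7 of 7, 4 past it. Red cell genes were higher in 6 of 8 and lower in 2, with 4 past it, and macrophage genes higher in 7 of 7, 2 past it. Dissociation genes were higher in 12 of 12, with 4 past the study's thresholds and 0 past the adjusted test in edgeR. Their part in the differences was not tested.

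**Figure D5:**
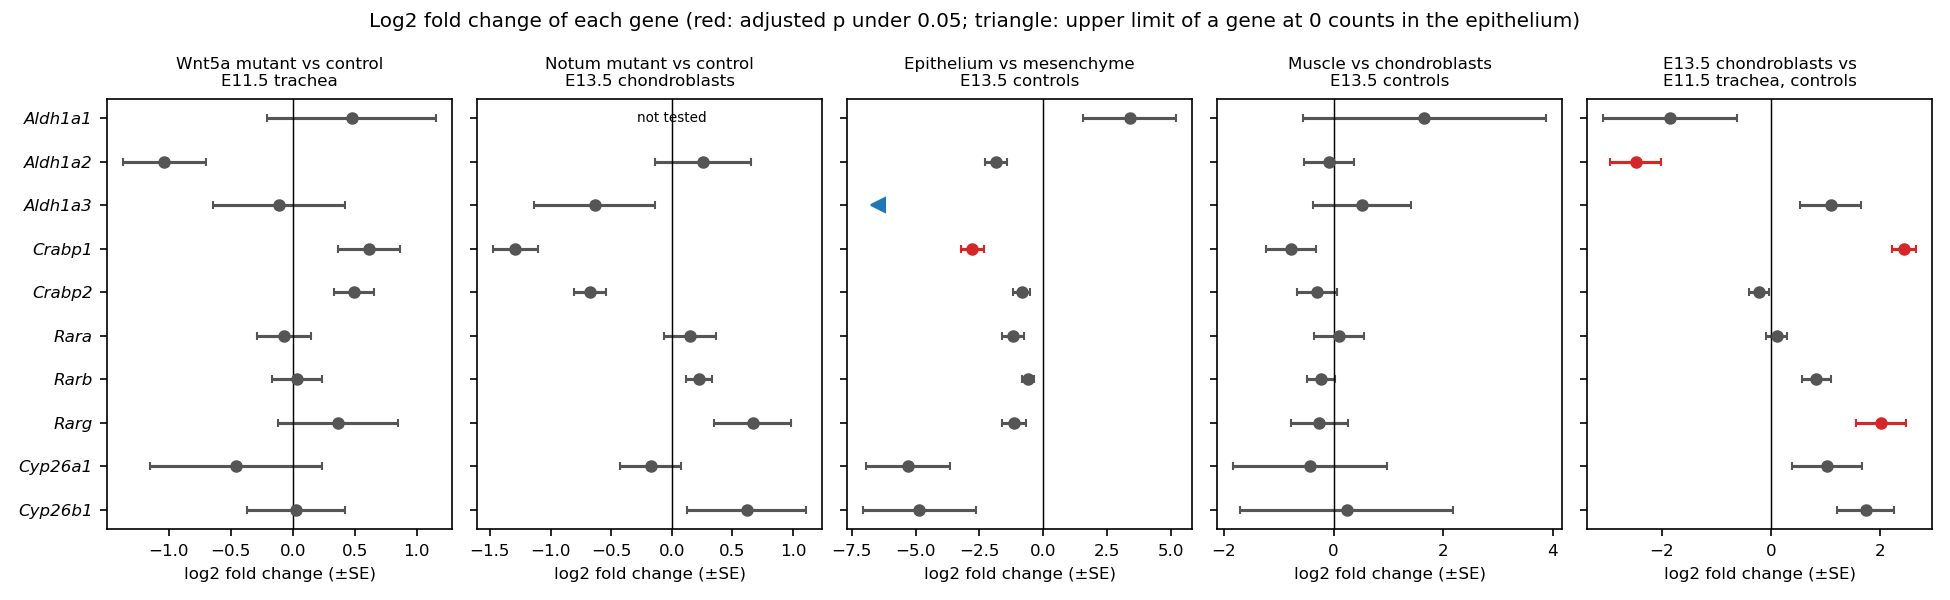
Log2 fold change of each of the 10 genes in the 5 comparisons (points) with its standard error (bars); red marks an adjusted p under 0.05 in edgeR, and the blue triangle is the bound for Aldh1a3, with 0 counts in both epithelial libraries. Crabp1 has the smallest error of the values in red, at 2.44 in chondroblasts against E11.5 tracheas.

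The comparisons share libraries: the first and the last use the same E11.5 controls, and all but the first use the same control chondroblasts, so their values are given side by side only. For Crabp1 they were 0.61, -1.29, -2.78, -0.77 and 2.44 in order, and for Aldh1a2 -1.04, 0.25, -1.87, -0.08 and -2.48. Whether the difference in a gene differs between the Wnt5a and Notum mutants was not tested.

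The other genes of the pathway were read from lists. Of 7 genes of retinol uptake, storage and release 4 were tested in each comparison. Stra6, the membrane receptor for retinol, was the gene of this list past the study's thresholds in Notum mutants, beside 8.41% of all genes. It was at 116 and 118 CPM in controls and 180, 186 and 166 CPM in mutants A, B and C. Each mutant lay above both controls. The log2 fold change was 0.61 with a standard error of 0.11 and an adjusted p of 0.212 by edgeR with Benjamini-Hochberg adjustment, higher in 3 of 3 mutants. Without the earlier control the adjusted p was 0.0334 by edgeR with Benjamini-Hochberg adjustment at 0.58, higher in 3 of 3 mutants, and there, as without mutant B (0.57), the fold was under that of the study's thresholds, as it was with a term for the date (0.58), which rests on the later control alone. The call at these thresholds was also lost with the most abundant entry alone (0.22, p 0.401) and with all libraries in 1 fit (0.59, p 0.429) in edgeR. Over its 12 alternatives the adjusted p ran from 0.000276 to 0.946.

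Lrat, which stores retinol as esters, had the smallest p of this list in Wnt5a mutants (-0.91, standard error 0.52, edgeR unadjusted p 0.107). Without control 7 it passed the study's thresholds in edgeR (-1.13, unadjusted p 0.0300). It was at 1.12 to 6.23 CPM in E11.5 controls and at 0.153 and 0 CPM in the earlier and later chondroblasts. It alone of this list passed the adjusted test in that comparison, lower, beside 12.5% of all genes. No fold is given, since the chondroblasts were at or under the floor of 3 counts, 0.153 and 0.224 CPM there. Lrat did not pass without control 13, control 17 or the later chondroblasts. Between muscle and chondroblasts 0 of 4 passed either rule in edgeR, where 0 of 4 had an unadjusted p under 0.05.

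Of 14 genes that turn retinol to retinaldehyde and back 10 were tested, led in level by Adh5. Rdh10, the main retinol dehydrogenase of the embryo, was at 6.99 and 8.04 CPM in epithelium, 81.4 and 142 CPM in muscle and 25.5 and 40.7 CPM in chondroblasts, earlier and later. Muscle was highest and epithelium lowest. In epithelium against mesenchyme 1 of 10 passed the adjusted test, beside 5.14% of all genes. This was Rdh10, at -3.00 with a standard error of 0.42 and an adjusted p of 0.0152 by edgeR with Benjamini-Hochberg adjustment, lower in 2 of 2 libraries. It was lost without the later epithelium (0.0634) or the later muscle (0.0712), and ran from 4.63e-10 to 0.0712 over 13 alternatives. In muscle against chondroblasts 1 of 10 passed the study's thresholds, beside 5.47% of all genes. This was Rdh10, at 1.77 with a standard error of 0.43 and an adjusted p of 0.472 by edgeR with Benjamini-Hochberg adjustment, higher in 2 of 2 libraries. Its adjusted p passed in DESeq2 (0.0278), and with no filter (0.0188) or all libraries in 1 fit (0.0305) in edgeR with Benjamini-Hochberg adjustment, at 1.75 to 1.76 and higher in 2 of 2 libraries, and reached 1 over 13 alternatives. Without the later muscle it did not pass the study's thresholds (1.32, unadjusted p 0.0679 in edgeR).

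Against E11.5 tracheas 2 of these 10 passed the adjusted test in chondroblasts, 1 in each direction, beside 12.5% of all genes. Akr1b10 was at 12.3 to 21.3 CPM in E11.5 controls and 2.35 and 2.99 CPM in chondroblasts, at -2.62 with a standard error of 0.38 and an adjusted p of 0.00431 by edgeR with Benjamini-Hochberg adjustment, lower in 2 of 2 libraries. Adh1 was at 0.175 to 2.94 CPM and at 20.0 and 43.8 CPM, at 4.39 with a standard error of 0.69 and an adjusted p of 0.00615 by edgeR with Benjamini-Hochberg adjustment, higher in 2 of 2 libraries. Both groups were apart. In the mutants 0 of 10 passed either rule in edgeR, with the smallest unadjusted p at 0.0730 for Adh1 at 1.26 in Wnt5a mutants and at 0.0648 for Akr1b10 at 1.35 in Notum mutants. Adh1 passed the study's thresholds in edgeR with the replicate block (1.41, p 0.0495), with all libraries in 1 fit (p 0.0460) and without control 18 (p 0.0287) or mutant 7 (p 0.0324). Akr1b10 passed them in edgeR without Notum mutant B (p 0.0330) and with all libraries in 1 fit (p 0.0136), and in DESeq2 (p 0.0420).

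A list of other breakdown, synthesis and binding genes had 3 genes, of which Cyp1b1 and Fabp5 were tested, and 0 of 2 passed the adjusted test in any comparison in edgeR. Cyp1b1, an enzyme that can also make retinoic acid, was at 5.03 and 16.02 CPM in epithelium, 99.8 and 52.8 CPM in muscle and 73.2 and 51.7 CPM in chondroblasts. The epithelium was lowest. The log2 fold change was -2.71 with an adjusted p of 0.0598 by edgeR with Benjamini-Hochberg adjustment, lower in 2 of 2 libraries, and 0.0440 without the later epithelium, with a range of 2.75e-07 to 0.167 over 13 alternatives. It was 0.67 in chondroblasts beside E11.5 tracheas, past the study's thresholds. In edgeR it lost this without control 7 (p 0.0805), control 16 (p 0.0719), control 17 (p 0.0852) or the earlier chondroblasts (p 0.340), and with library size only (p 0.0784), all libraries in 1 fit (p 0.164) or the mean of the 3 sorted populations (p 0.794). In Notum mutants it was -0.88, past them in edgeR without the later control (p 0.0276), without mutant C (p 0.0112) and with no filter (p 0.0202), and in DESeq2 (p 0.0275), and in muscle beside chondroblasts 0.31. Fabp5, which carries retinoic acid to another nuclear receptor, had -1.28 in chondroblasts against E11.5 tracheas (adjusted p 0.0506 by edgeR with Benjamini-Hochberg adjustment, lower in 2 of 2 libraries) and -0.18 in Wnt5a mutants. The former passed at adjusted p-values of 0.0488 without control 7, 0.0494 without control 18 and 0.0208 without the earlier chondroblasts by edgeR with Benjamini-Hochberg adjustment, at -1.89 to -1.36, lower in each library left. It also passed with DESeq2 size factors (0.0493), library size only (0.0293), no filter (0.0361), all libraries in 1 fit (0.0388) and the mean of the 3 sorted populations (0.0373) in edgeR with Benjamini-Hochberg adjustment, at -1.36 to -0.99, with lower means at E13.5, and ran from 0.00231 to 0.227 over 14 alternatives. Without the later chondroblasts it passed neither rule (-0.88, unadjusted p 0.0591 in edgeR).

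Of 15 RXR partners and coregulators 14 were tested, led in level by Hdac3. In Wnt5a mutants 12 of 14 were higher, with a median log2 fold change of 0.15, while 46.5% of all genes were higher; with the replicate block 8 of 14 were, with a median of 0.07. Of the 14, 0 passed either rule in edgeR. Rxrg had the smallest unadjusted p, 0.0442 at 0.52. It passed the study's thresholds without control 7 (0.72, p 0.00404) or mutant 18 (0.61, p 0.0286), and with its most abundant entry alone (0.62, p 0.0453). In Notum mutants 11 of 14 were higher, beside 51.9% of all genes, with a median of 0.25, and 4 passed the study's thresholds, beside 8.41% of all genes, 3 higher, Crebbp among them, and 1 lower, Rxrg. Crebbp, a coactivator, was at 64.0 and 52.2 CPM in the earlier and later control and at 103, 111 and 96.97 CPM in mutants A, B and C, a difference of 0.85 with a standard error of 0.15 and an adjusted p of 0.200 by edgeR with Benjamini-Hochberg adjustment, higher in 3 of 3 mutants. Without the earlier control its adjusted p was 0.0138 by edgeR with Benjamini-Hochberg adjustment at 0.99, higher in 3 of 3 mutants, and over its 12 alternatives it ran from 0.000144 to 0.816. Rxrg, a partner of the receptors, was at 10.98 and 20.1 CPM in controls and 5.57, 3.53 and 8.19 CPM in mutants, a difference of -1.42 with an adjusted p of 0.338 by edgeR with Benjamini-Hochberg adjustment, lower in 3 of 3 mutants, and 0.0434 at -1.80 without the earlier control, with a range of 0.0398 to 0.828 over 12 alternatives, the lowest with a term for the date, which rests on the later control alone. Rxrg did not pass the study's thresholds in edgeR without the later control (p 0.116), mutant A (p 0.0766) or mutant B (p 0.0669), or with all libraries in 1 fit (p 0.0811).

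In epithelium against mesenchyme 0 of 14 coregulators passed the adjusted test in edgeR, beside 5.14% of all genes. An unadjusted p under 0.05 was reached by 3 of 14, as by 2770 of all 13687 genes. The 3 also passed the study's thresholds, beside 18.8% of all genes: Ajuba higher (1.57) and Zfp423 (-1.40) and Nrip1 (-0.97) lower. Ajuba lost this without the later epithelium (p 0.0635), while its adjusted p passed in DESeq2 (0.0122), and with no filter (1.86e-06) or all libraries in 1 fit (0.00844) in edgeR with Benjamini-Hochberg adjustment, at 1.56 to 1.57 and higher in 2 of 2 libraries, and reached 0.364 over 13 alternatives. Zfp423 lost it without the earlier epithelium (p 0.0898), the earlier muscle (p 0.0859), the earlier chondroblasts (p 0.0841) or the later chondroblasts (p 0.0752), and with its most abundant entry (p 0.307). Nrip1 lost it without the earlier epithelium (p 0.1097), the later epithelium (p 0.0780), the earlier muscle (p 0.130) or the later chondroblasts (p 0.117), and with a term for the date (p 0.0609), library size only (p 0.0544) or its most abundant entry (p 0.0855). With all libraries in 1 fit both passed the adjusted test in edgeR with Benjamini-Hochberg adjustment, Zfp423 at 0.0421 (-1.41) and Nrip1 at 0.0344 (-0.98), with lower means in epithelium, and over 13 alternatives these reached 0.617 and 0.475. In muscle against chondroblasts 0 of 14 passed either rule, and Ncoa3 had the smallest unadjusted p, 0.151 at -0.60 in edgeR. With its most abundant entry alone Ncoa3 passed the study's thresholds in edgeR (-1.93, unadjusted p 0.0223). In chondroblasts against E11.5 tracheas 3 of 14 passed, beside 12.5% of all genes, all higher: Ncoa1 (1.56, adjusted p 0.0221), Rxra (0.78, adjusted p 0.0339) and Ncoa2 (0.91, adjusted p 0.0417) by edgeR with Benjamini-Hochberg adjustment, each higher in 2 of 2 libraries. These were lost without single libraries in edgeR with Benjamini-Hochberg adjustment, each still higher in the chondroblasts left. For Ncoa1 these were control 13 (0.0554), control 17 (0.0677), control 18 (0.0510) and the later chondroblasts (0.116). For Rxra they were control 7 (0.0518), control 13 (0.0801), control 17 (0.0763), control 18 (0.0631) and the later chondroblasts (0.136). It was lost as well with no filter (0.0613), all libraries in 1 fit (0.0862), the most abundant entry (0.0679) or the mean of the 3 sorted populations (0.126) in edgeR with Benjamini-Hochberg adjustment, at 0.46 to 0.91. For Ncoa2 they were control 13 (0.0905), control 16 (0.0604), control 17 (0.101), control 18 (0.0800), the earlier chondroblasts (0.0760) and the later chondroblasts (0.157), and it was lost with library size only (0.0653 at 0.83) or no filter (0.0691 at 0.89) in edgeR with Benjamini-Hochberg adjustment, higher in 2 of 2 libraries. Over 14 alternatives these adjusted p-values began at 0.00119 for Ncoa1, 0.00566 for Rxra and 0.00963 for Ncoa2, and the highest were those without the later chondroblasts.

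Genes known to respond to retinoic acid form a list of 25. In Wnt5a mutants 22 were tested, with a median log2 fold change of 0.12, and 1 passed the study's thresholds, beside 3.72% of all genes. This was Hoxb5, at 6.07 to 15.7 CPM in controls and 14.9 to 32.8 CPM in mutants (0.85, standard error 0.31, unadjusted p 0.0184 in edgeR). It did not pass them without mutant 17 (0.65, p 0.0661). With the replicate block 2 passed, Hoxb5 (0.96, p 0.00853) and Hoxb1 (1.71, p 0.0453), both higher in edgeR, beside 413 of all 14663 genes. In Notum mutants 16 of 19 tested were higher, beside 51.9% of all genes, with a median of 0.25, and 1 passed the study's thresholds, Stra6, beside 8.41% of all genes. In epithelium against mesenchyme 16 of 20 tested were lower, beside 6978 of all 13687 genes, with a median of -1.71. Of the 20, 4 passed the adjusted test, beside 5.14% of all genes, 3 lower, Meis1 and Tshz3 among them, and 1 higher.

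Meis1, a homeobox partner of Hox proteins, was at 86.6 and 102 CPM in epithelium, 317 and 421 CPM in muscle and 618 and 557 CPM in chondroblasts, earlier and later. The populations were apart, chondroblasts highest. The difference of epithelium was -2.29 with a standard error of 0.20 and an adjusted p of 0.00344 by edgeR with Benjamini-Hochberg adjustment, lower in 2 of 2 libraries. Tshz3 was at 5.56 and 1.63 CPM in epithelium and 30.9 to 69.4 CPM in mesenchyme, -3.73 with an adjusted p of 0.0316 by edgeR with Benjamini-Hochberg adjustment, lower in 2 of 2 libraries. It did not pass without the earlier muscle (0.0840), the later muscle (0.104), the earlier chondroblasts (0.105) or the later chondroblasts (0.0873), and over 13 alternatives its lowest value was 2.09e-08.

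In muscle against chondroblasts 2 of 20 passed the study's thresholds, beside 5.47% of all genes, and 0 the adjusted test in edgeR, where 2 had an unadjusted p under 0.05: Tgm2 higher (1.85, p 0.00321) and Meis1 lower (-0.65, p 0.0164). Meis1 did not pass without the earlier muscle (p 0.0889) or the earlier chondroblasts (p 0.0818). The adjusted p of Tgm2 passed in DESeq2 (0.00227 at 1.84) and with no filter (4.20e-07 at 1.82) in edgeR with Benjamini-Hochberg adjustment, with a higher mean in muscle, and reached 1 over 13 alternatives. In chondroblasts against E11.5 tracheas the median over the 22 tested was 0.01, and 5 of 22 passed the adjusted test, 3 higher and 2 lower, beside 12.5% of all genes, while 5 were higher and 4 lower past the study's thresholds, beside 26.1% of all genes. Those higher in the adjusted test were the Hox genes Hoxa3, Hoxa5 and Hoxa4. Hoxa3 was at 4.05 to 6.90 CPM in E11.5 controls and 21.3 and 15.7 CPM in the earlier and later chondroblasts, 1.81 with a standard error of 0.33 and an adjusted p of 0.0119 by edgeR with Benjamini-Hochberg adjustment, higher in 2 of 2 libraries. Its groups were apart. Hoxa5 had 2.59 and an adjusted p of 0.0160 by edgeR with Benjamini-Hochberg adjustment, higher in 2 of 2 libraries, and 0.204 without the later chondroblasts, the highest of 14 alternatives that began at 0.000101, and 0.114 with the mean of the 3 sorted populations. Hoxa4 had 1.17 and an adjusted p of 0.0337 by edgeR with Benjamini-Hochberg adjustment, higher in 2 of 2 libraries. It was lost without control 17 (0.0903), control 18 (0.0713), the earlier chondroblasts (0.0826) or the later chondroblasts (0.0607), and with no filter (0.0621), all libraries in 1 fit (0.0655) or the mean of the 3 sorted populations (0.986), and ran from 0.00302 to 0.986 over 14 alternatives.

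The genes whose levels over the 18 libraries were most like those of each gene were found by Pearson's r of log2 CPM among 15331 genes. The libraries belong to groups of different stage and cell type, so r is a description of how these groups are ordered. For Aldh1a2 they were Lrat (0.938), Bnc1 (0.926) and Fxyd6 (0.921), for Aldh1a1 Rab19 (0.935), Misp (0.890) and Cystm1 (0.875), and for Aldh1a3 Tbxa2r (0.962), Colq (0.961) and Glt8d2 (0.943). The nearest genes were thus of the same pathway for Aldh1a2 only by Lrat. For the binding proteins they were Ifitm2 (0.936), Aifm2 (0.925) and Slc35a1 (0.903) for Crabp1 and Emcn (0.870), Tsr3 (0.865) and Apex2 (0.851) for Crabp2.

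Among the receptors, the nearest to Rarb were Col9a3 (0.943), a collagen gene of the chondroblast list, Wwp2 (0.924) and Papss1 (0.917). Those nearest to Rara were Frmd4a (0.939), Clip3 (0.917) and Col26a1 (0.910), and those nearest to Rarg were Tle2 (0.956), Ets2 (0.955) and Twsg1 (0.955). For the breakdown enzymes they were Arpc1b (0.956), Luzp2 (0.937) and Ndn (0.915) for Cyp26a1 and Slc2a3 (0.948), Cpxm1 (0.934) and Mbnl2 (0.919) for Cyp26b1.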

How the data were processed

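The values are estimated counts, deposited by the authors in 1 table of 22 columns with several entries for many symbols; 56.0% of the values used are fractional. The labels name mm10, Partek and limma without saying what each did, and neither the aligner nor the counting tool is stated. The labels list 22 samples. Population and genotype in the column names linked 18 columns to them, and the remaining 4 could not be linked and were left out. Notum mutant C carries the same number in its column name as B does.

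Counts of 47248 entries were summed per symbol and rounded. A gene was tested where 1 CPM or more was reached by over 50% of the libraries in some group of the comparison. R 4.3.3 and edgeR 4.0.16 were used with TMM, the quasi-likelihood test and a prior count of 2, and DESeq2 1.42.0 beside them. The biological coefficient of variation was 34.0% in the Wnt5a, 35.9% in the Notum, 66.8% in the sorted control and 38.9% in the chondroblast against E11.5 comparison. In E11.5 libraries, deviations from genotype means had r of 0.102 to 0.530 in the 4 pairs of the same number and -0.323 to 0.219 in the other 16 pairs.

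Genes named from a list are up to 3 with the smallest p among those past the adjusted test, or else past the study's thresholds, or else the 1 with the smallest p; the most abundant gene of a list may be named too. The 10 genes and the lists were chosen with earlier results of these data known. Exon lengths are unions of GENCODE M21 exons.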

Additional observations from a re-analysis of the deposited data

Results flagged for a closer look

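In the 20 combinations of a gene with an E11.5 group, 2 values lay far from the rest of their group by Dixon's ratio of gap to range, which chance gives in about 1 of 20. Both are of E11.5 mutant 17. Aldh1a1 was at 14.2 CPM there, the highest of the 4 mutants (ratio 0.916), and Rarb at 83.2 CPM, the lowest (ratio 0.907). The epithelial and neural markers of that library, both high, are given in the report, and the cause of either value was not tested.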

How the results depend on the processing

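Each result was recomputed with DESeq2, its size factors, library size alone, no filter, all libraries in 1 fit, the most abundant entry of a symbol, a replicate block or date term where these applied, and without each library in turn. Where 1 library of a group was left it was assumed to vary like the other groups. Of 677 alternatives for the 10 genes 612 kept direction and side of the adjusted p of 0.05, 12 no longer passed it, 24 newly passed it, 27 tested values turned sign and 2 untested values moved; with 1 untested value, 28 signs turned. Changes at the study's thresholds are not in this tally. For sorted controls, where columns carry a date and no replicate number, the date term took the place of a block, and gave 555 adjusted calls in epithelium against mesenchyme and 24 in muscle against chondroblasts. Causes were not tested.

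Genes past the adjusted test numbered 2 in Wnt5a mutants, and 40 with DESeq2, 5 with library size only, 9 with no filter, 0 with all libraries in 1 fit, 1 with the replicate block and 0 to 3 without single libraries. Past the study's thresholds they numbered 546, and 1451 with no filter, 299 with all libraries in 1 fit and 320 (without control 17) to 935 (without control 7) without single libraries. In Notum mutants edgeR gave 0 adjusted calls (1762 genes at an unadjusted p under 0.05), and 526 came with DESeq2, 42 with no filter, 9 with all libraries and 0 to 2540 without single libraries, the latter without the earlier control. A date term, which fits that control exactly and so rests on the later control alone, gave 2604. The study's thresholds gave 1188, and 4057 with that term and 670 (without mutant B) to 4209 (without the earlier control).

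Epithelium against mesenchyme gave 704 adjusted calls, and 2035 with DESeq2, 1928 with no filter, 3898 with all libraries and 265 (without the later chondroblasts) to 1450 (without the earlier epithelium). The study's thresholds gave 2578, and 5338 with all libraries and 1980 to 4213 without the same libraries. Muscle against chondroblasts gave 18, and 254 with DESeq2, 305 with no filter, 532 with all libraries and 2 (without the earlier chondroblasts) to 22 (without the later epithelium). The study's thresholds gave 749, and 1137 with no filter, 2385 with all libraries and 552 to 1035 without single libraries. Chondroblasts against E11.5 tracheas gave 1835, and 3493 with DESeq2 and 825 (without the later chondroblasts) to 3391 (without the earlier ones). The study's thresholds gave 3840, and 3105 to 5501 without single libraries.

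Signs turned in these log2 fold changes. With the replicate block Cyp26b1 in Wnt5a mutants was -0.13, and with a date term Rara in Notum mutants was -0.055. With the most abundant entry Rara was 0.18 in epithelium against mesenchyme and -0.062 in chondroblasts against E11.5 tracheas. With the mean of the 3 sorted populations in place of chondroblasts Aldh1a1 was 0.090, Aldh1a3 -2.28, Rara -0.24, Cyp26a1 -0.96, Cyp1b1 -0.084 and Hoxa4 -0.013. There Aldh1a3 passed the adjusted test, lower at E13.5 (0.0316 by edgeR with Benjamini-Hochberg adjustment). Crabp2 also newly passed it, at -0.65 (0.0404 by the same test). The value of Aldh1a3 is no bound and depends on the treatment of the 0 counts in epithelium: its mean levels were 0 CPM there, 17.7 in muscle and 12.5 in chondroblasts, against 5.70 at E11.5. Without single libraries, in Wnt5a mutants Aldh1a1 ran from -0.82 to 0.81, Aldh1a3 from -0.48 to 0.21, Rara from -0.23 to 0.12, Rarb from -0.11 to 0.17 and Cyp26b1 from -0.13 to 0.19. In Notum mutants Aldh1a2 ran from -0.18 to 0.84 and Rara from -0.048 to 0.36. In muscle against chondroblasts Aldh1a1 ran from -3.89 to 8.69, Aldh1a2 from -0.49 to 0.52, Rara from -0.082 to 0.33, Rarg from -0.65 to 0.30, Cyp26b1 from -3.69 to 1.19 and Cyp1b1 from -0.23 to 0.70; the highest value of Aldh1a1 is fitted against a single library with 0 counts and is no bound. In chondroblasts against E11.5 tracheas Rara ran from -0.11 to 0.26. Depth limits what 0 means: after scaling, 3 counts were 0.153 CPM in the deepest library and 0.434 CPM in the shallowest.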
